A study of Eisenia fetida with 15 samples.

Results

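The glycosidases described here are 104 of the 241846 unigenes assembled from RNA of the compost earthworm *Eisenia fetida*. A unigene is an assembled transcript contig, and a member is any unigene whose best protein match carries a name with cellulase, glucanase, amylase, glucosidase, maltase, trehalase, galactosidase, mannosidase, mannanase, xylanase, fucosidase or hexosaminidase in it. Chitinases were not counted as members. The 104 unigenes match 66 distinct proteins, so several share a match. They are 399 to 5504 bases long with a median of 880 bases, against 660 bases for all unigenes. The name rule also caught 3 tubulin polyglutamylases, which add glutamate to tubulin and cut no sugar, because that word contains amylase. The other 101 names are those of glycosidases or of their subunits.

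Lindane is an organochlorine insecticide. By the labels, adult worms lived in soil with a nominal 2.4 mg/kg of it, either freshly spiked or aged for 30 d, and were taken after 7 d or 28 d. RNA was taken from whole-body sections, in 15 libraries that form 5 triplets of 3. The sources used here give neither the strain nor the number of worms per library, nor whether libraries of 1 triplet came from separate worms, and a p-value here measures just the spread among these libraries. A code names each triplet by soil aging and then exposure: 0d-7d and 0d-28d without aging, 30d-7d and 30d-28d with it, and control. The treatment text of the same libraries gives another condition, displaced by one triplet. It calls the triplet coded 0d-7d 0 d of exposure, the one coded 0d-28d 7 d in soil aged 0 d, the one coded 30d-7d 28 d in soil aged 0 d, the one coded 30d-28d 7 d in soil aged 30 d, and the one coded control 28 d in soil aged 30 d. Triplets are named by code below, and any direction against control depends on the code being the correct name. The code also gives the control triplet no aging and no exposure time, so lindane cannot be told apart there from time in the soil.

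Glycosidases cut the bonds between sugars. Earthworms feed on decaying plant matter, and their gut cells secrete endoglucanases, which cut cellulose chains internally, and alpha-amylases, which cut starch. Maltases and trehalases then release glucose from short sugars. Other glycosidases work inside cells: in lysosomes, hexosaminidases, galactosidases, fucosidases and alpha-mannosidases take sugars one by one from the ends of glycan chains, and in the endoplasmic reticulum and Golgi apparatus glucosidases and alpha-1,2-mannosidases trim the glycans of newly made proteins.

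By name, the kinds known from digestion are 4 endoglucanases, 27 amylases, 2 trehalases and 5 maltases or alpha-glucosidases, except that 1 of the last, contig_203607, is named as lysosomal. The other glycosidases are 34 alpha-mannosidases, 7 hexosaminidases, 8 galactosidases or fucosidases and 14 glycan-trimming enzymes. Digestion of polysaccharides therefore covers only some of the members. The best match was from the marine annelid *Capitella teleta* for 31 members, from the Pacific oyster for 18, from the leech *Helobdella robusta* for 10 and from an *Eisenia* species for 2, which are the endoglucanases contig_951 (*E. fetida*) and contig_952 (*E. andrei*). Where reads match near-identical contigs, their split between them is uncertain.

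The libraries held 13182058 to 28022746 counted reads. In 0d-28d library 3 the tested unigenes took 90.8% of the reads, against at least 97.8% in every other library. The same library held 21.5 RPM (reads per 1000000 counted reads) on the 22 unigenes of the blood marker list, the chains and linkers of the earthworm's hemoglobin, where the others held 2971 to 20313, and 227.2 on the 19 coelomocyte unigenes, where the others held 873.4 to 3065. On the 12 germ line unigenes it held 1836, where the others held 63.0 to 131.8. The sum of the 38 muscle unigenes ran from 1189.6 to 6504 RPM.

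Levels are given in FPKM, fragments scaled to unigene length and library size, so that unigenes of different length can be set side by side. Over all 15 libraries the most abundant members were a lysosomal hexosaminidase, contig_16932, with a mean of 295.2 FPKM, and the endoglucanase contig_951, with 274.2 FPKM. The first had a coefficient of variation (SD over mean) of 0.370 across libraries and the second one of 1.86. The roles differed in this as well. The median coefficient of variation was 1.97 for the amylases and 1.57 for the endoglucanases. It was 0.912 for the alpha-mannosidases, 0.909 for the maltases and alpha-glucosidases and 0.831 for the trehalases. The galactosidases and fucosidases had 0.455, the hexosaminidases 0.390 and the glycan-trimming enzymes 0.318. On the log2(FPKM + 1) scale, the median SD was 2.49 for the 23 amylases with enough reads to be tested and 0.39 for the 14 glycan-trimming enzymes, with 0.61 for all 101090 tested unigenes.

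**Figure D1:**
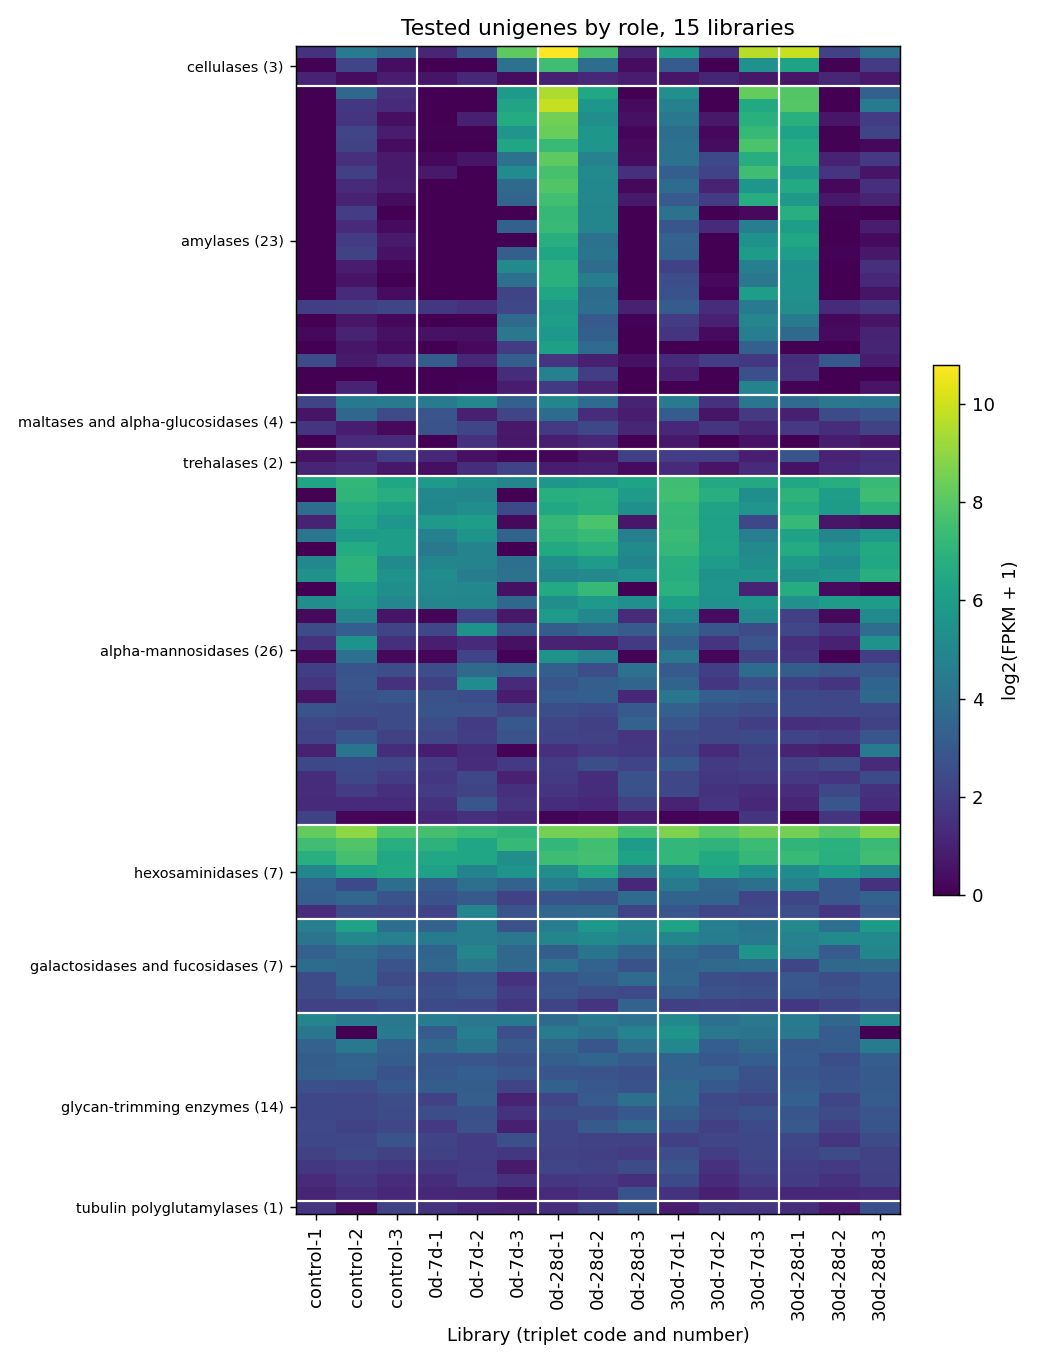
Level of the 87 tested members in each of the 15 libraries, as log2(FPKM + 1) by color, with 1 line per unigene sorted by role and then by mean level, and the number of unigenes in brackets. The endoglucanases and amylases switch between bright and dark from library to library within a triplet, and most glycan-trimming enzymes vary less, with contig_18817, at 0 FPKM in control library 2 and 30d-28d library 3, as an exception.

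The heat map of the tested members shows where the spread lies. The bright libraries of the endoglucanase and amylase blocks are not those of 1 triplet. Between triplets lay a median of 24.6% of a member's variance on the log2(FPKM + 1) scale, against 25.3% for all tested unigenes. The alpha-mannosidase contig_8358, with 70.5%, was the highest of the members.

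Endoglucanase contig_951 had 1.95, 20.3 and 11.3 FPKM in control libraries 1, 2 and 3. It had 1.26, 6.70 and 276 FPKM in 0d-7d, 1771, 204 and 1.06 FPKM in 0d-28d, 62.6, 2.07 and 781 FPKM in 30d-7d, and 955, 3.40 and 15.7 FPKM in 30d-28d. Each triplet coded for lindane thus held a library at or below 3.40 FPKM and one at or above 276 FPKM, while the 3 control libraries all stood at or below 20.3 FPKM, and every triplet overlapped with every other. Triplet means were 11.2 ± 9.19, 94.6 ± 157.0, 658.6 ± 968.7, 282.1 ± 433.6 and 324.6 ± 545.7 FPKM (SD, n = 3), listed from control through the triplets in the order just given. The log2 changes against control were 3.03 (SE 2.63), 6.06 (SE 3.03), 4.73 (SE 2.84) and 4.94 (SE 2.87) in the same order, with edgeR adjusted p = 1, 0.604, 1 and 1. Over all 5 triplets its edgeR adjusted p was 0.952.

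The other endoglucanases were much less abundant. contig_952 followed contig_951, with 178 FPKM in 0d-28d library 1, 76.4 in 30d-28d library 1, 43.2 in 30d-7d library 3 and 0 in 0d-7d libraries 1 and 2 and 30d-7d library 2. Its Spearman's rho with contig_951 was 0.92 over the 15 libraries. contig_68218 lay between 0.285 and 1.38 FPKM in every library and showed no such range.

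The most abundant amylase, contig_2466, had 0, 11.7 and 1.76 FPKM in control, 0, 0 and 56.5 in 0d-7d, 698, 86.4 and 0 in 0d-28d, 42.1, 0 and 305 in 30d-7d, and 242, 0 and 9.13 in 30d-28d. contig_1944 had 0, 2.33 and 1.41 FPKM in control, 0, 0 and 78.8 in 0d-7d, 915, 49.5 and 0.257 in 0d-28d, 25.2, 0 and 94.0 in 30d-7d, and 247, 0 and 21.4 in 30d-28d. Both were highest in 0d-28d library 1, as contig_951 was, and at 0 in control library 1, 0d-7d libraries 1 and 2, 30d-7d library 2 and 30d-28d library 2. The longest amylase unigene, contig_1136 of 3221 bases, had 321 FPKM in 0d-28d library 1 and 151 FPKM in 30d-7d library 3, and from 0.020 to 0.178 FPKM in the 5 libraries just named for zeros and 0.110 FPKM in 0d-28d library 3.

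**Figure D2:**
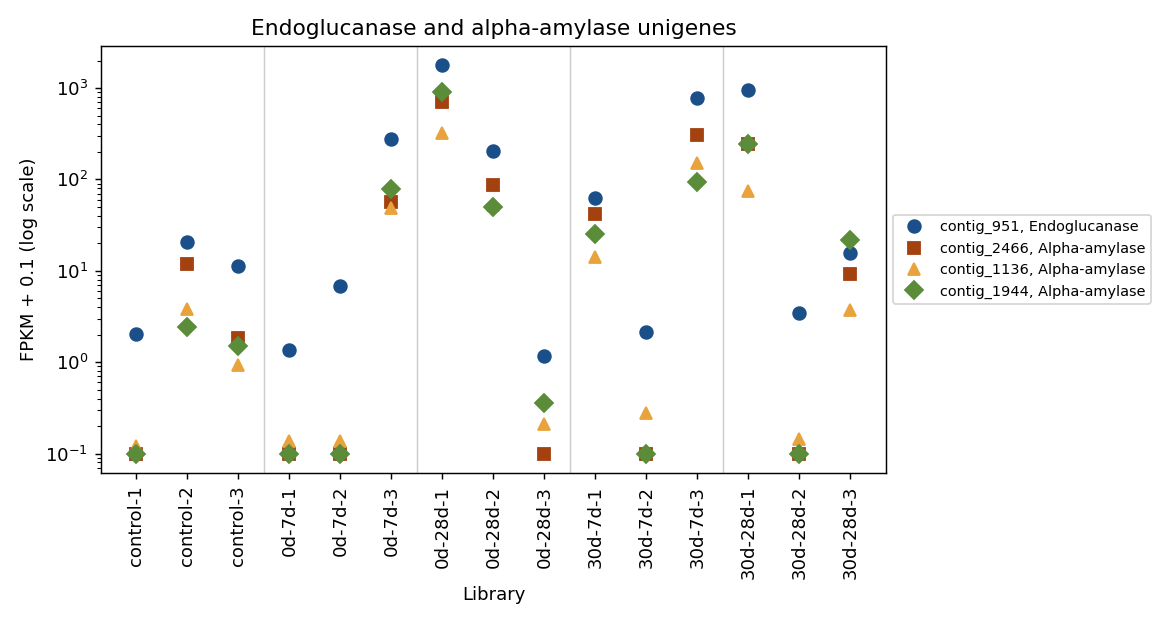
FPKM + 0.1 on a log axis of endoglucanase contig_951 and the amylases contig_2466, contig_1136 and contig_1944 in each library, with gray lines between triplets. The 4 unigenes are high together in 0d-28d library 1, 30d-28d library 1, 30d-7d library 3, 0d-7d library 3 and 0d-28d library 2, and low together in at least 1 library of every triplet.

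The plot of endoglucanase and amylase levels by library shows this shared order. Of the 23 tested amylases, 18 had a Spearman's rho over 0.8 with contig_951 across the 15 libraries, with a median of 0.91. The 23 include unigenes with a mean under 5 FPKM. At a mean of at least 5 FPKM, 18 of the 61 other members passed 0.8, with contig_952 among them. Of the 32900 tested unigenes outside the list at that mean, 351 did so, which is 1.07%. No tested alpha-mannosidase or hexosaminidase passed 0.8. The points are libraries that share their depth and their tissue makeup, and the rho is a description. The 5 other tested amylases were contig_1142, contig_23043, contig_4787 and contig_4789, with a rho of 0.80 (just under the limit), 0.76, 0.74 and 0.67, and contig_64914, with a rho of -0.00 and 0.4 to 8.5 FPKM. The 4 amylases with too few reads to be tested, contig_568922, contig_545219, contig_549202 and contig_414987, had a rho of 0.07 to 0.32. In summed reads, the 4 endoglucanases took 3.57 RPM in 0d-28d library 3 and 3872 in 0d-28d library 1, and the 27 amylases 5.16 and 3081 in the same libraries. Without contig_951 the other endoglucanases took 1.52 to 172 RPM. Leaving out 0d-28d library 3, the lowest sums were 4.71 and 10.1 RPM. The control libraries had no reads on 23, 5 and 8 of the 27 amylases, and 30d-7d library 3 had reads on all of them. A count of 0 allows up to 3 reads, or 0.107 to 0.228 RPM depending on the library, and this covers counting error only.

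Markers of gut moved with these enzymes. The gut list held 115 unigenes, of which 22 are chitinases that the chitin list also holds. In every triplet 102 to 106 of the 115 had reads and 9 to 13 were at 0. The 93 others are proteases by name, such as lumbrokinase, chymotrypsin and carboxypeptidase, and include carboxypeptidases D and M. Whether all of the 93 are particular to gut was not tested. They summed to 186.7 to 2039 RPM in control, 154.3 to 14401 in 0d-7d and 1477 to 58884 in 0d-28d. In 30d-7d they summed to 197.1 to 28602 RPM and in 30d-28d to 189.2 to 37005. Their sum had a Spearman's rho of 0.92 with the endoglucanases and 0.81 with the amylases. In bulk tissue, fewer gut cells in a section and less enzyme RNA per gut cell cannot be told apart, and the part of gut content in the triplet values was not tested.

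The named unigenes most like contig_951 in Spearman's rho were a fibrinolytic enzyme (contig_227, 0.98), a carboxylic ester hydrolase (contig_1470, 0.98), lumbrokinases (contig_8473, 0.97; contig_371, 0.96; contig_593, 0.96), glucosylceramidases (contig_139, 0.97; contig_2381, 0.96) and another carboxylic ester hydrolase (contig_3508, 0.96). Fibrinolytic enzyme and lumbrokinase are names for fibrin-cutting serine proteases of the earthworm gut. Chitinases, which cut chitin, had another order. The 26 unigenes of that list summed to 27939 RPM in control library 2, 23665 in 30d-7d library 1, 8378 in 30d-28d library 3 and 7174 in 0d-7d library 2, and to 348.6 in 0d-28d library 1, where the endoglucanases and amylases peaked. Their rho was 0.46 with the endoglucanases and 0.27 with the amylases, and 0.73 with the alpha-mannosidases.

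Against control, the tested amylases gave a median log2 change of 2.81 in 0d-7d, with 19 of 23 positive, 6.47 in 0d-28d with 22, 4.81 in 30d-7d with 23 and 4.75 in 30d-28d with 22. The median over all tested unigenes was -0.04, 0.00, -0.03 and -0.04. The amylases contig_4556, contig_26277 and contig_4787 had a triplet at 0 reads in 1 or more contrasts, where a fitted change depends on the prior count; with those put at the bound that a floor of 3 reads per triplet allows, the medians were 2.44, 6.02, 4.65 and 4.75. All 4 values use the same 3 control libraries, and the 18 amylases that follow contig_951 repeat much the same measurement. None of the amylases passed the edgeR test. In summed reads the 27 amylases took 23.4, 41.7 and 20.8 RPM in control and 38.5, 10.1 and 431.7 in 0d-7d. They took 3081, 509.4 and 5.16 RPM in 0d-28d, 122.4, 24.3 and 1305 in 30d-7d, and 1079, 35.6 and 41.8 in 30d-28d. Every triplet coded for lindane thus overlapped with control, and in 0d-7d only library 3 stood above all control libraries. The amylase contig_10948 was the member with the largest change among those without overlap in 30d-7d against control, with 0, 1.02 and 0.278 FPKM in the control libraries, against 7.60, 2.77 and 106 FPKM in 30d-7d. These are 0, 3 and 1 reads in control and 12, 5 and 246 reads in 30d-7d, so the lack of overlap rests on 5 reads against 3. The log2 change of contig_10948 was 6.13 (SE 2.70, edgeR adjusted p = 1), and 3.15 without 30d-7d library 3.

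Maltases and trehalases had other orders, with a rho of 0.22 and -0.11 between their summed reads and those of the endoglucanases. Intestinal maltase-glucoamylase contig_64646, named after the vertebrate gut enzyme that frees glucose from starch pieces, had 3.57, 19.7 and 20.1 FPKM in control, 20.6, 31.0 and 8.96 in 0d-7d, 29.5, 12.5 and 1.08 in 0d-28d, 20.1, 1.90 and 18.1 in 30d-7d, and 12.8, 18.5 and 17.9 in 30d-28d. The triplets overlapped, and its rho with contig_951 was 0.21. Of the trehalases, which split trehalose into glucose, the more abundant was contig_338578, with 0.103 to 5.96 FPKM. The 5 maltases and alpha-glucosidases took at most 41.6 RPM in any library and the 2 trehalases at most 11.8.

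The alpha-mannosidases were the largest role, with 142.4 to 1104 summed RPM and a median of 598.9. contig_8358 was the most abundant of them and had the lowest unadjusted p over all 5 triplets among the members. It had 78.0, 139 and 80.1 FPKM in control, 54.9, 40.2 and 28.7 in 0d-7d, 49.5, 60.01 and 75.2 in 0d-28d, 177, 91.1 and 89.3 in 30d-7d, and 83.9, 105 and 158 in 30d-28d. In FPKM all 6 libraries coded 0d-7d or 0d-28d lay below all 9 libraries of the control, 30d-7d and 30d-28d triplets. The 0d-7d and 0d-28d triplets overlapped with each other. The margin was narrow, with 75.2 FPKM in 0d-28d library 3 against 78.0 FPKM in control library 1. In TMM-scaled CPM (counts per 1000000 reads) 0d-28d library 3 stood above control libraries 1 and 3 and 30d-7d library 2. On that scale 0d-28d thus overlapped with control and 30d-7d, while 0d-7d still lay below control, 30d-7d and 30d-28d. The unadjusted p was 0.0146 over the 5 triplets, and the edgeR adjusted p was 0.747. The log2 change was -1.37 (SE 0.408) in 0d-7d against control, -0.60 (SE 0.402) in 0d-28d against control, 1.41 (SE 0.408) in 30d-7d against 0d-7d and 0.85 (SE 0.403) in 30d-28d against 0d-28d, with edgeR adjusted p = 1, 0.690, 1 and 0.8003. The largest over the 10 contrasts was that of 30d-28d against 0d-7d, 1.62 (SE 0.411, edgeR adjusted p = 0.885). By the treatment text the lower triplets are those at 0 d and at 7 d in unaged soil.

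contig_18952 had 39.8, 54.6 and 30.8 FPKM in control, 29.1, 30.1 and 11.4 in 0d-7d, 40.6, 54.3 and 41.5 in 0d-28d, 69.9, 42.5 and 51.4 in 30d-7d, and 42.5, 59.9 and 60.7 in 30d-28d. All 0d-7d libraries lay below all other libraries. contig_17174 had 46.1, 119 and 43.7 FPKM in control, 37.2, 23.1 and 15.4 in 0d-7d, 29.6, 33.1 and 42.7 in 0d-28d, 104, 44.4 and 46.4 in 30d-7d, and 38.7, 47.4 and 107 in 30d-28d. Here too every 0d-7d and 0d-28d library lay below every control library. Its log2 change in 0d-28d against control was -1.08, and -0.42 without control library 2. In 0d-7d against control the member with the largest change among those without overlap was contig_69844, with 1.97, 44.4 and 1.72 FPKM in control and 0.867, 1.46 and 0.394 in 0d-7d. Its log2 change of -4.24 (SE 1.59, edgeR adjusted p = 1) was -1.06 without control library 2, and 30d-28d library 3, at 44.0 FPKM, was the other high library.

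**Figure D3:**
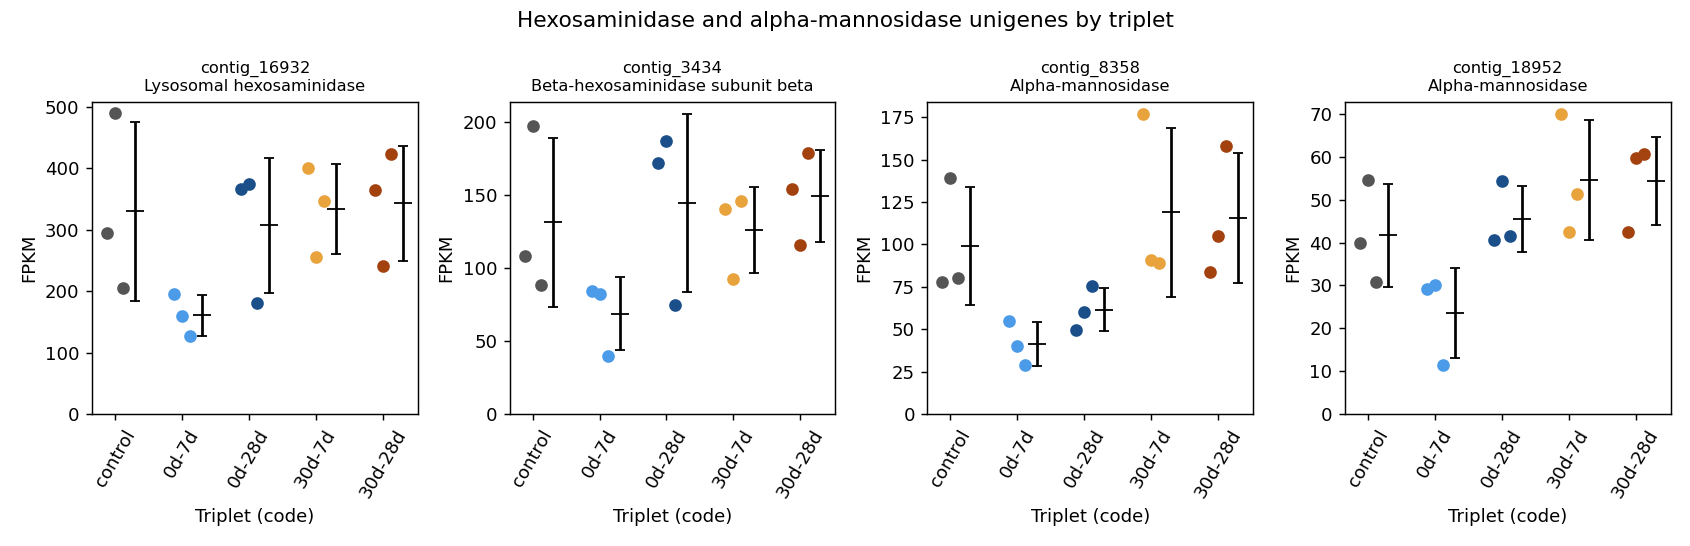
FPKM of hexosaminidases contig_16932 and contig_3434 and alpha-mannosidases contig_8358 and contig_18952 by triplet, with colored points for the 3 libraries and a black dash and bar for mean ± SD. For all 4 unigenes the mean of the 0d-7d triplet is the lowest, with 160.5, 68.7, 41.3 and 23.5 FPKM.

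Several abundant alpha-mannosidases were present in some libraries and nearly missing in others. contig_8359, which matches the same protein as contig_8358, had 1.05, 86.3 and 49.4 FPKM in control, 54.0, 62.7 and 0.201 in 0d-7d, 146, 210 and 0.641 in 0d-28d, 143, 71.6 and 4.02 in 30d-7d, and 149, 0.551 and 0.348 in 30d-28d. It stood below 5 FPKM in 6 libraries, at least 1 of each triplet. contig_8318 was low in the same 6 libraries, with 0 to 1.07 FPKM there and 30.7 to 150.0 FPKM in the other 9, and its rho with contig_8359 was 0.92. contig_8358 had no library below 28.7 FPKM.

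Another pair was missing elsewhere. contig_35752 and contig_35725, which also share a matched protein, had 0 reads in control library 1 and 0d-7d library 3. In the other 13 libraries contig_35752 had 29.9 to 186 FPKM and contig_35725 had 19.2 to 143 FPKM. contig_18951 and contig_36320 were lowest in 0d-7d library 3, with 4.43 and 9.94 FPKM, and next in control library 1, with 13.5 and 17.8 FPKM. contig_35725 was the member with the largest change among those without overlap in 0d-28d against 0d-7d, with a log2 change of 2.40 (SE 1.72, edgeR adjusted p = 0.688), and contig_35752 in 30d-28d against 0d-7d, with 2.63.

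**Figure D4:**
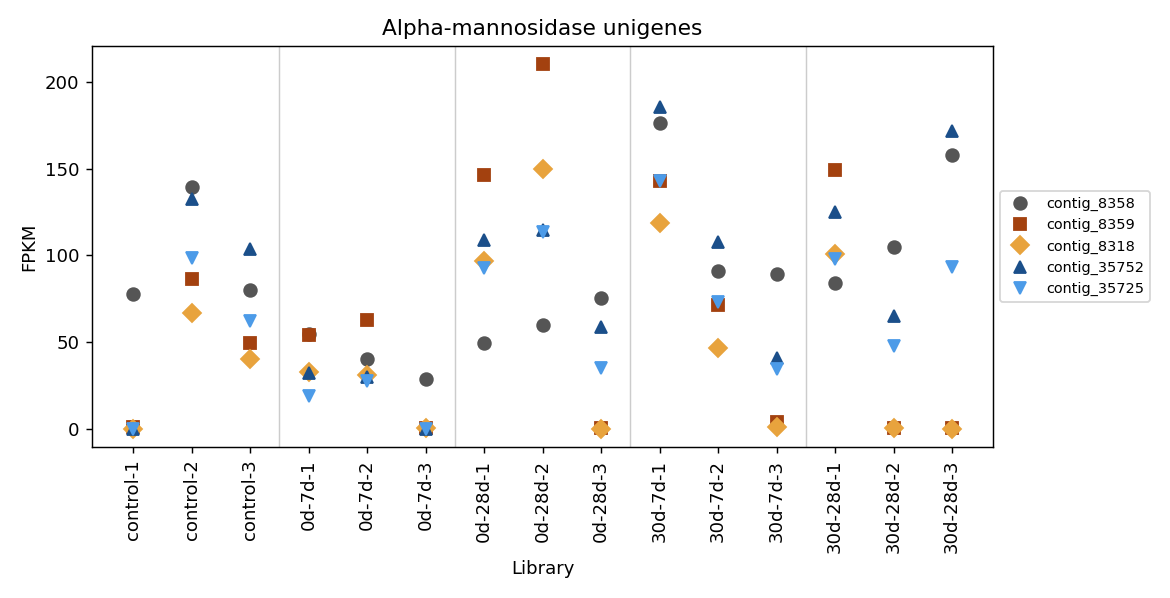
FPKM of 5 alpha-mannosidase unigenes in each library, on a linear axis with gray lines between triplets. contig_8359 and contig_8318 are near 0 together in 6 libraries and contig_35752 and contig_35725 in control library 1 and 0d-7d library 3, while contig_8358 is at least 28.7 FPKM throughout.

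The plot of alpha-mannosidase levels by library shows that the gaps fall on some libraries of a triplet and on no triplet as a whole. The labels do not say which body sections a library holds, and a part of body region or of differences between worms in these gaps was not tested.

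Of the 26 tested alpha-mannosidases, 7 had a positive log2 change in 0d-7d against control, with a median of -0.92, and 18, 17 and 16 in 0d-28d, 30d-7d and 30d-28d, with medians of 0.43, 0.13 and 0.16. In 0d-7d library 3 the summed alpha-mannosidase reads were the lowest of all libraries, at 142.4 RPM. The other libraries of that triplet held 378.6 and 598.9, and control held 377.8, 1038 and 514.7, so the summed values overlapped.

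Hexosaminidases cut N-acetylglucosamine and N-acetylgalactosamine from glycan ends. The lysosomal contig_16932 had 295, 490.2 and 205 FPKM in control, 195, 159 and 128 in 0d-7d, 367, 375 and 181 in 0d-28d, 401, 256 and 346 in 30d-7d, and 365, 241 and 424 in 30d-28d. The 0d-7d triplet lay below control, 30d-7d and 30d-28d without overlap, and overlapped with 0d-28d through its library 3. Triplet means were 330.2 ± 145.6, 160.5 ± 33.7, 307.5 ± 109.8, 334.3 ± 73.5 and 343.3 ± 93.7 FPKM (SD, n = 3) in the same order. The log2 change of contig_16932 in 0d-7d against control was -1.14 (SE 0.391), with an unadjusted p of 0.0123 and an edgeR adjusted p of 1.

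contig_3434, named as the beta subunit of beta-hexosaminidase, had 108, 197 and 88.1 FPKM in control, 84.4, 82.0 and 39.7 in 0d-7d, 172, 187 and 74.5 in 0d-28d, 140.5, 92.2 and 145 in 30d-7d, and 154, 116 and 178 in 30d-28d. Its 0d-7d libraries too were below all control libraries. Beta-hexosaminidase contig_9764 had 177, 235 and 112 FPKM in control and 125, 80.9 and 149 in 0d-7d, which overlap. contig_3837 stood at 29.3 FPKM in 0d-7d library 2 and at 1.59 to 12.2 FPKM in the others, so the hexosaminidases did not share one order. Of 7 tested, 2 had a positive log2 change in 0d-7d against control, with a median of -0.71, and 3, 2 and 3 in 0d-28d, 30d-7d and 30d-28d, with medians of -0.20, -0.35 and -0.07.

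The named unigenes most like contig_16932 in Spearman's rho included V-type proton ATPase subunit a (contig_7080, 0.88, and contig_98340, 0.84), part of the pump that acidifies lysosomes. Purple acid phosphatase (contig_13948, 0.85), puratrophin-1 (contig_71671, 0.85), a ras GTPase-activating protein (contig_65582, 0.84) and VPS35 (contig_22537, 0.84), which sorts cargo between endosomes and the Golgi apparatus, were also among the 8 highest. The rest of the 8 were a class-5 aminotransferase (contig_30704, 0.829) and an innexin (contig_33982, 0.825). In all, 68 of the 32900 unigenes compared had a rho over 0.8 with contig_16932, or 0.207%, and so did 5 of the 61 members with a mean of at least 5 FPKM.

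Galactosidases and fucosidases remove galactose and fucose. The most abundant, plasma alpha-L-fucosidase contig_1151, had 23.2, 73.5 and 13.8 FPKM in control, 9.41, 21.9 and 5.44 in 0d-7d, 22.9, 53.3 and 31.0 in 0d-28d, 72.3, 24.5 and 17.4 in 30d-7d, and 32.5, 14.4 and 57.4 in 30d-28d. All triplets overlapped with control. Beta-galactosidase contig_29812 ranged only from 16.6 to 35.3 FPKM, with means of 24.3 ± 7.29, 20.6 ± 2.39, 29.9 ± 3.50, 24.2 ± 5.30 and 32.1 ± 5.10 FPKM (SD, n = 3). Its 0d-7d libraries lay below all those of 0d-28d and 30d-28d. In summed reads this role spanned 86.6 to 229.2 RPM.

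The glycan-trimming enzymes had the lowest median coefficient of variation of the roles, 0.318, and took 104.0 to 282.1 summed RPM. Neutral alpha-glucosidase AB, contig_30639, the catalytic subunit that removes glucose from new glycoproteins, had 29.0, 21.6 and 18.9 FPKM in control, 22.6, 18.5 and 19.5 in 0d-7d, 11.96, 19.8 and 15.2 in 0d-28d, 31.6, 14.6 and 18.9 in 30d-7d, and 21.3, 11.6 and 30.8 in 30d-28d, all triplets overlapping. Its partner by name, glucosidase 2 subunit beta (contig_18817), was at 0 FPKM in control library 2 and 30d-28d library 3 and at up to 47.1 FPKM in 30d-7d library 1. The alpha-1,2-mannosidases remove mannose from the same glycans. contig_53503 had 4.11, 3.90 and 4.59 FPKM in control and 6.29, 4.70 and 6.22 in 30d-28d, which do not overlap, with a log2 change of 0.53 (SE 0.369, edgeR adjusted p = 1). contig_119458 had 5.67 FPKM in 0d-28d library 3 and 0.544 to 1.98 FPKM in the others. In 30d-7d against 0d-7d all 14 glycan-trimming enzymes had a positive log2 change, with a median of 0.49. In 0d-7d against control 2 of 14 had one, with a median of -0.27. Of all unigenes, 49.8% were positive in the first comparison and 47.7% in the second. Of the 14, 0 passed the edgeR test in either comparison. Both comparisons share 0d-7d library 3, whose summed reads for this role, 104.0 RPM, were the lowest of all libraries. The other libraries of that triplet held 188.3 and 229.9 RPM. Control held at most 212.3 RPM, and 30d-7d held 267.7, 173.2 and 196.6, so the summed values overlapped.

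**Figure D5:**
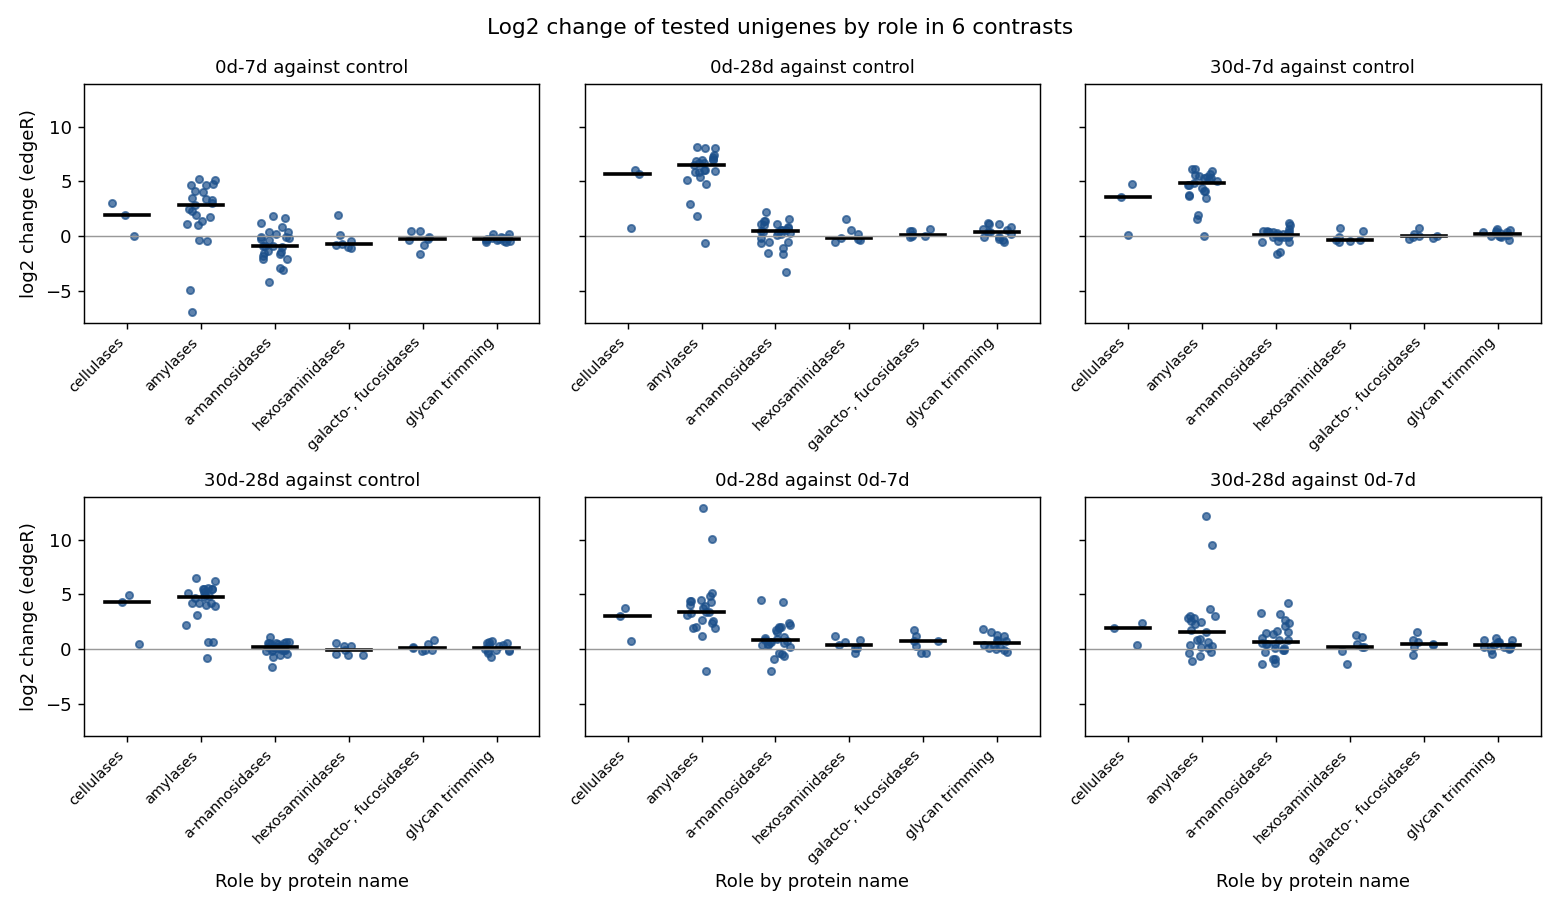
Log2 change of each tested unigene by role (points) with the median of the role (black line) in 6 contrasts, from edgeR. The endoglucanases and amylases reach the largest positive values in each contrast with control, with amylase medians from 2.81 to 6.47, and the glycan-trimming enzymes lie between -0.72 and 1.81 in all 6.

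The plot of log2 changes by role sets the roles side by side. The wide scatter of endoglucanases and amylases goes with the wide spread of their libraries within triplets, and none of the points shown passed the edgeR test. The outermost amylase points in the contrasts with 0d-7d are contig_4787 and contig_26277, whose 0d-7d triplets were at 0 reads, and give no size of change.

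Of the 104 members, 87 had enough reads to be tested. Over all 5 triplets 0 of the 87 changed by edgeR at an adjusted p under 0.05, where 0.000989% of all tested unigenes did, which is 1 unigene and no member. At an unadjusted p under 0.05 there was 1 member, against 6.07% of all unigenes. DESeq2 called 0 members there and 1.03% of all unigenes, and limma on log2(FPKM + 1) called 0 members and 0.00594% of all unigenes.

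In each of the 4 contrasts with control 0 members changed by edgeR, with 0.000989% of all unigenes. At an unadjusted p under 0.05 there were 10 members in 0d-7d (all unigenes 4.74%), 10 in 0d-28d (8.35%), 1 in 30d-7d (3.5%), while 30d-28d had 0 (4.31%). Triplets did not overlap in FPKM for 10 members in 0d-7d against control, 1 higher and 9 lower, or 11.5% of the members tested, where 8.49% of all unigenes did not overlap. In 0d-28d there were 2 higher and 4 lower (6.90%, all unigenes 10.8%), in 30d-7d 7 higher and 1 lower (9.20%, all unigenes 7.32%) and in 30d-28d 1 higher and 1 lower (2.30%, all unigenes 9.29%). The members' share was thus above that of all unigenes in 0d-7d and below it in 0d-28d and 30d-28d. In 30d-7d it was above it in FPKM and below it in TMM-scaled CPM, with 5 members or 5.75%. DESeq2 called 1 member in 0d-7d and 1 in 0d-28d, with 0.329% and 0.863% of all unigenes, and 0 in 30d-7d and 30d-28d, with 0.302% and 0.402%. limma called 0 members in all 4, with 0.00495%, 0.00396%, 0.00396% and 0.00297% of all unigenes. The member called in 0d-28d was amylase contig_11190, with 0, 1.72 and 0.718 FPKM in the control libraries, against 272, 26.3 and 0.274 FPKM in 0d-28d, which overlap. The one called in 0d-7d was amylase contig_4787, which had 0 reads in all 3 libraries of 0d-7d, so that no fold is given. It had 0, 46 and 0 reads in control libraries 1, 2 and 3, so this call rests on 1 control library.

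In the 6 contrasts among lindane triplets edgeR called 0 members and 0.0% of all unigenes. By the code, soil aging at 7 d is 30d-7d against 0d-7d. There 12 members lay higher without overlap and 0 lower, or 13.8% of those tested, against 8.38% of all unigenes, and 70 of 87 members had a positive log2 change with a median of 0.57, where the median of all unigenes was 0.00. At an unadjusted p under 0.05 there were 3 members (all unigenes 4.21%). Soil aging at 28 d by the code is 30d-28d against 0d-28d, with 2 higher and 2 lower (4.598%, all unigenes 9.31%) and 2 members that reached an unadjusted p under 0.05 (6.29%). The members had a median log2 change of -0.45, 28 of 87 being positive. This direction rested on 1 library: without 0d-28d library 1 the median was 0.19, with 54 of 89 positive. Whether aging acts differently at the 2 exposure times, by the code, was tested as an interaction. It called 0 members and 0.0% of all unigenes, and 2 had an unadjusted p under 0.05, contig_173 with -0.87 (SE 0.393) and contig_119458 with -1.82 (SE 0.809, edgeR adjusted p = 0.868).

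Exposure time in fresh soil by the code is 0d-28d against 0d-7d. Here 12 members lay higher and 2 lower without overlap, or 16.1%, against 11.1% of all unigenes, and 15 had an unadjusted p under 0.05 (all unigenes 9.09%). The median log2 change was 1.02 with 71 of 87 positive, 3.38 for the amylases, 0.79 for the alpha-mannosidases and 0.53 for the glycan-trimming enzymes, where the median of all unigenes was 0.01. In aged soil, 30d-28d against 30d-7d, 0 members lay higher and 1 lower (1.15%, all unigenes 8.02%), and 0 had an unadjusted p under 0.05 (3.09%). That 1 member was alpha-mannosidase contig_50806, with a log2 change of -0.28 (SE 0.309, edgeR adjusted p = 1).

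The 2 contrasts that change aging and time together gave 11 members higher and 0 lower in 30d-28d against 0d-7d (12.6%, all unigenes 10.4%), with 13 members at an unadjusted p under 0.05 (5.32%). They gave 3 higher and 0 lower in 30d-7d against 0d-28d (3.45%, all unigenes 8.99%), with 1 member under that p (6.28%). All contrasts with 0d-7d share its 3 libraries, in which most of the tested alpha-mannosidases, hexosaminidases and glycan-trimming enzymes gave negative values against control. DESeq2 called 2 members in 30d-28d against 0d-7d, with 0.366% of all unigenes. They were contig_8358, at 1.60 (SE 0.422, DESeq2 adjusted p = 0.0386), and contig_4787. That amylase was also the 1 member called by DESeq2 in 30d-7d against 0d-7d and in 0d-28d against 0d-7d, with 0.298% and 0.856% of all unigenes. By library, contig_4787 had 125, 0 and 3 reads in 30d-7d, 2686, 355 and 0 in 0d-28d, and 1481, 1 and 0 in 30d-28d. In the other contrasts among lindane triplets DESeq2 called 0 members, with 0.525% of all unigenes in 30d-28d against 0d-28d, 0.275% in 30d-28d against 30d-7d and 0.489% in 30d-7d against 0d-28d. limma called 0 members in all 6, with 0.00297% of all unigenes in 0d-28d against 0d-7d, 0.000989% in 30d-28d against 0d-28d and in 30d-7d against 0d-28d, and 0.0% in the rest.

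Few unigenes carried a name on the lists for uptake or storage of the sugars released. Only 15772 of the 241846 unigenes had a protein name other than uncharacterized or hypothetical, so the lists give no count of such genes. The 2 unigenes named as facilitated glucose transporters summed to 8.48 to 29.7 RPM, with the lowest value in 0d-7d library 3. Of 17 glycogen metabolism unigenes 5 were tested, of 9 unigenes for the entry of other hexoses into glycolysis 6, and of 26 chitinase unigenes 18. In all 10 contrasts and over all 5 triplets 0 of these passed the edgeR test in either direction. In 0d-28d against control, 4 of 18 tested chitinases had a positive log2 change, with a median of -2.66, where the amylases had 6.47. The chitinase sums were 75.8, 27939 and 4774 RPM in control and 348.6, 553.9 and 39.3 in 0d-28d. The sums of both kinds overlapped between these triplets. In the same contrast the glycogen and hexose entry lists had medians of 0.04 and 0.49, with 4 of 5 and 4 of 6 positive.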

How the data were processed

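RNA was sequenced from 15 libraries of body sections. The authors deposited 1 table that gives read counts, as whole numbers, and FPKM for each unigene in each library, per the file headers, with a protein description for part of the unigenes. The sources used here name no assembler, aligner or counting program and no treatment of reads matching several unigenes, and no genome or unigene sequence was used. Members were found by name and sorted into roles by name. The members and the gene lists were chosen with earlier results of these data known, and unrelated names caught by a list's pattern were taken out by name. Group codes come from the labels.

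The deposited counts were tested, without change, with edgeR 4.0.16 (R 4.3.3): filterByExpr with a minimum count of 10 and minimum total of 15, TMM scaling, and quasi-likelihood F tests in 1 fit of 5 triplets over 15 libraries, which left 10 residual degrees of freedom. All tests are two-sided, adjusted by Benjamini-Hochberg over the 101090 tested unigenes, at a threshold of 0.05. SE is the log2 change divided by the square root of F. The interaction test, the split of the gut list into chitinases and proteases, and the medians with unigenes at their bound were added after the data were seen. The script was tested on simulated data. DESeq2 1.42.0, limma 3.58.1 on log2(FPKM + 1), RLE size factors, no filter, a replicate block, fits of only 2 triplets and leaving out each library were alternatives. Triplets were called without overlap where every FPKM of one exceeded every FPKM of the other.

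Unigenes were named by a rule: the 12 most abundant members, the most abundant of each role, the 5 members with the lowest p over all 5 triplets, the member with the largest change without overlap per contrast (mean of at least 5 FPKM in one of the triplets), and the 8 unigenes most like each of the 2 most abundant members. Other named members were chosen after their values were seen.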

Additional observations from a re-analysis of the deposited data

How the results depend on the processing

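By edgeR 0 members changed in any of the 10 contrasts or over all 5 triplets, and this count was 0 as well with RLE size factors, without the filter on low counts (which tests all 104 members), with only the 2 triplets compared, and with limma. Without each library in turn the count ranged from 0 to 0 in every comparison, 0d-28d library 3 included. DESeq2 called 1 member in 0d-7d against control, 1 in 0d-28d against control, 1 in 30d-7d against 0d-7d, 1 in 0d-28d against 0d-7d and 2 in 30d-28d against 0d-7d, and 0 elsewhere; the cause was not tested. With TMM-scaled CPM in place of FPKM, members without overlap numbered 5 in 30d-7d against control, where FPKM gave 8, which puts the share below that of all unigenes, and 2 in 30d-28d against 30d-7d, where FPKM gave 1. The 10 log2 changes recomputed, the largest without overlap in each contrast, kept their sign under all alternatives that gave a value, and the other named changes are not covered by this. With the replicate block 0 members changed in every comparison. Libraries with the same number did not deviate together, with a mean correlation of -0.0576 over 30 pairs against 0.0289 over 60 pairs of other numbers. Of 15 libraries, 3 were closest to one of their own number. No pairing by number was seen, but large differences between single libraries could hide one. Low reads limit the 17 members that were not tested and the amylases at 0 reads.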

Other observations

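Some less abundant members were high in libraries other than those of the amylases, and contig_70 in amylase libraries as well. These unigenes were chosen after their values were seen, and nothing was tested on them. In 0d-7d library 2 the alpha-mannosidases contig_28720 and contig_57735 stood at 44.1 and 35.5 FPKM and hexosaminidase contig_3837 at 29.3 FPKM, while the other 14 libraries had at most 14.7, 10.4 and 12.2 FPKM. Alpha-mannosidase contig_25415 had 17.1 FPKM in control library 2 and 20.3 FPKM in 30d-28d library 3, the same libraries in which contig_69844 was high, and at most 4.13 FPKM elsewhere. Alpha-mannosidase contig_70 had 29.3 to 54.8 FPKM in control library 2, 0d-28d libraries 1 and 2, 30d-7d libraries 1 and 3 and 30d-28d library 3, and 0.121 to 3.63 FPKM in the other 9 libraries. Of its high libraries, 0d-28d libraries 1 and 2 and 30d-7d library 3 were also high in the amylases. Its rho with contig_951 was 0.69.

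In 0d-28d library 3, the library with high germ line and low blood markers, alpha-mannosidase First_Contig5131 had 233 reads and at most 11 reads in any other library. Across all 104 members, 25 had their highest FPKM in 0d-28d library 1, 21 in 30d-7d library 1 and 14 in 0d-28d library 3. The tubulin polyglutamylase contig_79317 had 0.270 to 7.94 FPKM, with the highest value also in 0d-28d library 3.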
